A study of Mus musculus with 48 samples.

Results

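The addition of E4bp4 loss to Bmal1 loss in heart muscle cells was examined by setting 6 double-knockout libraries (CBK/CEK) directly against 6 single-knockout libraries (CBK), 12 of the 48 libraries of the series. CBK mice are Bmal1 flox/flox and carry 1 copy of Cre recombinase under the MHCα (Myh6) promoter, which is active in cardiomyocytes. CBK/CEK mice carry the same Cre and are flox/flox for both Bmal1 and E4bp4. Both groups therefore share Cre and the Bmal1 deletion and differ in E4bp4. Their littermates, called BMAL1 FLOX and BMAL1/E4BP4 FLOX, have these floxed alleles but no Cre, with 6 libraries each. The 4 other groups, used here for reference levels, are CEK (E4bp4 deletion alone), E4BP4 FLOX, Cre CON (Cre without a floxed gene) and WT. Each library is a biological replicate of biventricular heart, both ventricles together, from a C57BL/6 male. Neither the age of the mice nor the hour at which hearts were taken is stated in the sources used here. The series' design lists CBK/CEK and CBK under separate lines, each with its own littermate controls, while the animal identifiers of these 4 groups share a prefix and run through each other. How far the 2 groups share parents is not stated, so breeding and E4bp4 status cannot be told apart by these 12 libraries alone. RNA of endothelial cells, fibroblasts and other cells in which the Cre is not active was sequenced with that of the cardiomyocytes.

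BMAL1 is the central activator of the circadian clock and works with CLOCK or NPAS2 on DNA sites called E-boxes. Among the outputs of the clock are the PAR bZIP activators DBP, TEF and HLF, which bind D-boxes. E4BP4, encoded by Nfil3, is a bZIP repressor that binds the same D-boxes and so opposes them. Its gene is repressed by REV-ERBα and REV-ERBβ (Nr1d1 and Nr1d2), whose transcription depends on BMAL1. In the annotation used for names Bmal1 is Arntl and E4bp4 is Nfil3.

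Counts assigned to genes ranged from 20613763 to 26880813 in CBK/CEK and from 22555717 to 28407868 in CBK. Mitochondrial transcripts took 19.52% to 23.79% of them in CBK/CEK and 9.55% to 22.58% in CBK, with the lowest share in CBK replicate 5. The unnamed gene ENSMUSG00000119584 took 13.35% in CBK replicate 3 and at most 2.21% in each of the other 11 libraries. In the groups used for comparison, BMAL1/E4BP4 FLOX replicate 6 stands apart with 34.766% of this gene and 13128833 counts, and the gene took 4.583% to 33.417% in CEK and 6.183% to 15.331% in E4BP4 FLOX. Levels are given as CPM, counts scaled to a fixed library size after TMM normalisation over all 48 libraries. They are not scaled to transcript length, so they compare groups and not genes. Changes are log2 fold changes of CBK/CEK against CBK, each with its standard error (SE) from edgeR's quasi-likelihood test on the 12 libraries, 6 in each group. A gene was called at a Benjamini-Hochberg adjusted p under 0.05 over all genes tested.

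Nfil3 RNA was compared first, because its loss is what the labels say separates the groups. It stood at 0.991 CPM in the lowest, 1.87 CPM in the median and 2.82 CPM in the highest CBK/CEK library. In CBK it stood at 30.4, 38.9 and 46.7 CPM. All CBK/CEK libraries lay far below all CBK libraries, and the fall was -4.42 on the log2 scale (SE 0.21, edgeR adjusted p = 1.37e-08). The 12 floxed libraries without Cre held 7 to 13.8 CPM, so CBK lay above all of them and CBK/CEK below all of them. The contrast between the Cre groups is therefore one between a level below and a level above that of floxed hearts. For reference, Nfil3 stood at 0.644 ± 0.0948 CPM (SD, n = 6) in CEK and at 9.89 ± 1.40 CPM in WT.

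Arntl, the Bmal1 gene, has its deletion in both groups. Its whole-gene count stood at 10.9, 11.6 and 13.3 CPM in the lowest, median and highest CBK/CEK library and at 5.79, 8.02 and 12.6 CPM in CBK. The ranges overlapped and the difference of 0.49 (SE 0.16, edgeR adjusted p = 0.495) was not called. Both groups stood far above their littermates, which held 1.04 ± 0.381 CPM (SD, n = 6) in BMAL1 FLOX and 0.987 ± 0.327 CPM in BMAL1/E4BP4 FLOX. The counts of the targeted gene thus run against what a loss of the whole transcript would give. A whole-gene count includes any exons that Cre leaves in place, so it does not check the Bmal1 deletion, and the groups are named here as they are labelled.

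Across the transcriptome the 2 groups differed in few genes. Of 14825 genes tested, 34 were called (0.229%), 27 higher in CBK/CEK (0.182% of genes tested) and 7 lower (0.0472%). Among them 10 were higher and 6 lower by more than 2-fold. The median log2 fold change over all genes tested was -0.007, and 1125 genes (7.59%) had an unadjusted p under 0.05. For 33 of the 34 called genes the 6 CBK/CEK libraries did not overlap the 6 CBK libraries, the exception being Sprr1a, and over all genes tested 0.836% did not overlap. Of the 34, 31 are protein coding, and they lie on 17 chromosomes. As the strandedness of the counting is not given, the 15 that overlap a gene on the opposite strand, among them Wee1, Rhobtb1, Oplah, Casq1, Cp and Emilin2, may hold reads of that gene. The count rests in part on single libraries, since it was 22 without CBK/CEK replicate 4 and 21 without CBK/CEK replicate 5. DESeq2 called 96 genes, 64 higher and 32 lower, the 34 among them. A fit of all 48 libraries called 128, of which 32 were shared.

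**Figure D1:**
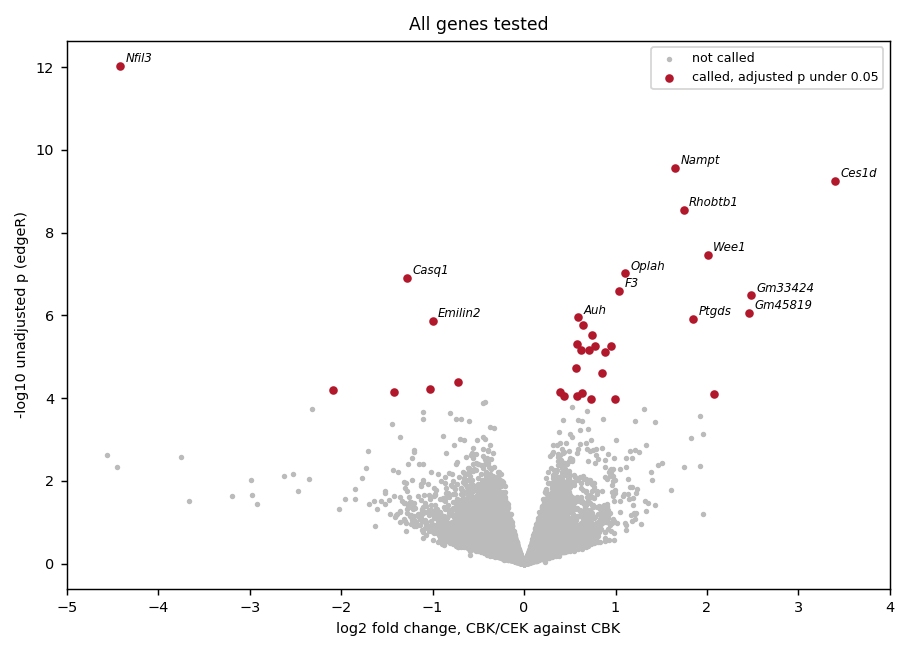
Change and test of every gene tested in CBK/CEK against CBK. The x axis is the log2 fold change and the y axis the -log10 of edgeR's unadjusted p; each point is a gene, and the 34 called genes are in red, 27 to the right of 0 and 7 to the left. The 13 called genes with the smallest p carry their symbols, with Nfil3 at -4.42 and Ces1d at 3.40 farthest out among them.

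The clock genes themselves were described next, to show whether the clock differed between hearts with and without E4bp4 when Bmal1 was missing from both. Of 25 measured clock and D-box factors only Nfil3 was called, by edgeR and by DESeq2, and 6 had an unadjusted p under 0.05. These 6 were Nfil3, Arntl, Cry1, Rorb, Nr1d2 and Csnk1e. The shares over all genes tested were 0.229% called by edgeR and 7.59% at that unadjusted threshold. The median of the 25 was 0.09, beside -0.01 over all genes tested. Dbp, a D-box activator, stood at 27.4, 32.1 and 38.0 CPM in the lowest, median and highest CBK/CEK library and at 24.1, 29.2 and 42.3 CPM in CBK. The Dbp ranges overlapped almost entirely, with a difference of 0.06 and a 95% interval of -0.25 to 0.37. Its relatives Tef and Hlf differed by 0.13 (-0.08 to 0.34) and 0.09 (-0.29 to 0.47).

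The repressors of the clock were likewise not called. Cry1, which represses CLOCK and BMAL1, differed by 0.38 (95% interval 0.02 to 0.74, edgeR adjusted p = 0.632), and Nr1d2 by 0.29 (0.01 to 0.57, edgeR adjusted p = 0.649). Nr1d1 differed by 0.36 (-0.13 to 0.86). The period genes Per1, Per2 and Per3 differed by 0.16 (-0.25 to 0.58), 0.24 (-0.21 to 0.68) and 0.18 (-0.10 to 0.47). Among the activators, Clock differed by 0.10 (-0.13 to 0.33) and Npas2 by -0.27 (-0.66 to 0.12). The highest upper bound among these genes was the 0.86 of Nr1d1.

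**Figure D2:**
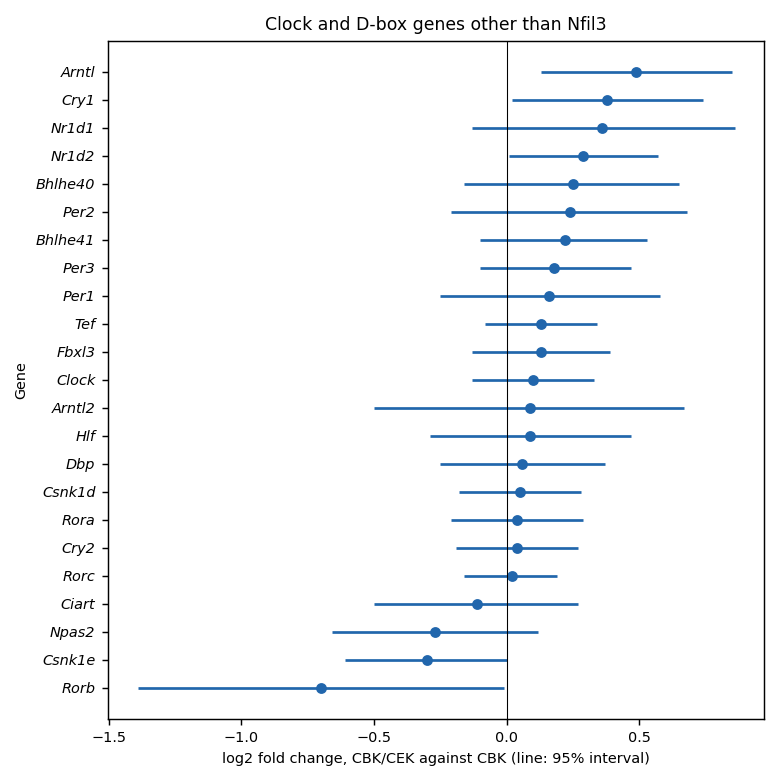
Clock and D-box genes other than Nfil3 in CBK/CEK against CBK. Points are log2 fold changes and lines their 95% intervals, built from the SE with 10 residual degrees of freedom. None of these genes was called, and the points lie between -0.30 and 0.38 except for Arntl at 0.49 and Rorb at -0.70; Fbxl21, at under 1 CPM, is left out.

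Among 21 measured genes listed as outputs of the clock, 3 were called by edgeR and by DESeq2, all higher in CBK/CEK. Over all genes tested edgeR called 0.229%. The list was chosen with earlier results of these data known, so the 2 shares are a description and no separate test. The list's median was 0.06, and the fit of all 48 libraries also called Dgat2. Of the 21, 8 had an unadjusted p under 0.05, against 7.59% of all genes tested. The lowest was Hif3a at -1.05, which was not called. Wee1, the kinase that restrains entry into mitosis by inhibiting CDK1, stood at 16.3, 27.2 and 34.4 CPM in the lowest, median and highest CBK/CEK library and at 3.85, 7.08 and 8.18 CPM in CBK. No CBK library reached the lowest CBK/CEK library, and the rise was 2.01 (SE 0.20, edgeR adjusted p = 0.000103). The floxed libraries spanned 12.7 to 25.5 CPM, so CBK lay below all of them and CBK/CEK across and above their range. Gm45819, an unclassified transcript annotated next to Wee1 on chromosome 7, rose with it, from 1.89 CPM (range 0.603 to 2.45) to 8.01 CPM (range 5.72 to 16.9), by 2.46 (SE 0.31, edgeR adjusted p = 0.0013). Both overlap 1600010M07Rik on the opposite strand, so reads of these genes may be mixed. The neighbours on either side, Swap70 at 0.02 and Zfp143 at -0.08, were not called.

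Nampt, which encodes the rate-limiting enzyme of NAD salvage, stood at 97.3, 134 and 151 CPM in the lowest, median and highest CBK/CEK library and at 34.3, 43.4 and 45.0 CPM in CBK. The groups were widely separated, and Nampt rose by 1.65 (SE 0.12, edgeR adjusted p = 2.02e-06). The 12 floxed libraries held 116 to 239 CPM, above all CBK libraries. The CBK/CEK libraries reached only the lowest floxed library, BMAL1 FLOX replicate 3 at 116 CPM. All other floxed libraries held at least 153.4 CPM, above every CBK/CEK library. Of 22 measured genes of NAD synthesis and use, Nampt alone was called, against 0.229% of all genes tested. An unadjusted p under 0.05 was found for 3 of the 22, against 7.59% of all genes, and the list's median was 0.03. The lowest was Nnt, the mitochondrial transhydrogenase gene, at -0.71. Coq10b, whose product binds coenzyme Q in mitochondria, stood at 21.7, 24.5 and 29.4 CPM in CBK/CEK and 12.5, 16.7 and 18.6 CPM in CBK. Its rise of 0.63 (SE 0.12, edgeR adjusted p = 0.0377) left it below the 12 floxed libraries, which held at least 32.8 CPM. The call for Coq10b was lost without any of 10 single libraries, with an edgeR adjusted p of up to 0.117.

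Promoters of the called genes were scanned for the sites of the factors involved, since E4BP4 acts on D-boxes and BMAL1 on E-boxes. Promoter windows of RefSeq on build GRCm38.p6, from 250 bases before to 50 bases after the annotated start, were matched by symbol for 19 of the 27 higher and 5 of the 7 lower genes. The D-box was searched as TTATGTAA or TTACGTAA and the E-box as CACGTG, on both strands, and neither motif can overlap the other. A D-box was present for 2 of the 19 higher genes (10.5%), Ptgds and Coq10b, and for 0 of the 5 lower genes, against 95 of 10781 tested genes with a window (0.881%) and 347 of 32851 windows (1.06%). An E-box was present for 3 of the 19 (15.8%), Dhdds, Rhobtb1 and Coq10b, and 0 of the 5, against 1245 of 10781 tested genes (11.5%). These matches are letters in a window, no measurement of binding was used here, and other forms of the motifs or sites outside the window were not searched. The windows of both D-box genes are shown 5′ to 3′ on the strand of the gene, with the D-box in capitals, which in both reads on the opposite strand; in Coq10b the E-box is in capitals as well. For Ptgds, the gene of a prostaglandin D2 synthase, the window is chr2:25469700-25469999 on the minus strand of GRCm38.p6, at 1 of its annotated starts, and the D-box begins at position -141 relative to that start.
Ptgds: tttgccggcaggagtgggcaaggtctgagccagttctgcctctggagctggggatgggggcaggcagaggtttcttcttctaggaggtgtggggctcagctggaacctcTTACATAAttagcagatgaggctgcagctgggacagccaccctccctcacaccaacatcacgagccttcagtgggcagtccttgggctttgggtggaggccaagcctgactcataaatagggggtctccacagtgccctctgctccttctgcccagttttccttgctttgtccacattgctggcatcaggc
For Coq10b the window is chr1:55052520-55052819 on the plus strand, with the D-box at position -162 and the E-box at position -78.
Coq10b: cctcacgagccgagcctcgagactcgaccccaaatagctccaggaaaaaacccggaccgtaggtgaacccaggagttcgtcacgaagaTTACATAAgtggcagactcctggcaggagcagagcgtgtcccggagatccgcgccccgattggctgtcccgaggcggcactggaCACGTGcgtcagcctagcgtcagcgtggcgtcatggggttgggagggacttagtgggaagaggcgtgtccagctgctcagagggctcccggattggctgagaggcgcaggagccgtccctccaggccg

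Ptgds itself stood at 142.3, 251.1 and 298.1 CPM in the lowest, median and highest CBK/CEK library and at 38.1, 63.3 and 104 CPM in CBK. The groups did not overlap, and Ptgds rose by 1.85 (SE 0.24, edgeR adjusted p = 0.0015). The floxed libraries spread from 80.5 to 398.2 CPM and overlapped both groups. The floxed littermates also differed by 0.52 in the same direction (SE 0.26, edgeR adjusted p = 1), and the difference between the Cre pair and the floxed pair was not called for Ptgds (1.34, SE 0.37, edgeR adjusted p = 0.475).

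Genes of metabolism formed the next group. Ces1d, a carboxylesterase that hydrolyses triglycerides, showed the largest called rise of all, from 7.19 CPM in the median CBK library (range 6.32 to 18.1) to 92.8 CPM in the median CBK/CEK library (range 76.6 to 112.7). The highest CBK library remained far below the lowest CBK/CEK library, and the rise was 3.40 (SE 0.25, edgeR adjusted p = 2.81e-06). Even so, CBK/CEK stayed below all 12 floxed libraries, which held 118 to 226.7 CPM. Ces1d belongs to a family of similar genes, so reads shared between copies make its level uncertain. Of 33 measured genes of triglyceride and lipid synthesis Ces1d alone was called by edgeR and by DESeq2, and the list's median was 0.01. Among all genes tested edgeR called 0.229%.

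Oplah encodes 5-oxoprolinase, which returns 5-oxoproline to glutamate in the glutathione cycle. It stood at 59.7, 75.6 and 96.2 CPM in the lowest, median and highest CBK/CEK library and at 30.9, 37.7 and 39.7 CPM in CBK, a rise of 1.11 (SE 0.12, edgeR adjusted p = 0.000237). The CBK/CEK libraries overlapped the floxed range of 56.8 to 82.5 CPM, and CBK lay below it. Auh, a mitochondrial enzyme of leucine breakdown, rose by 0.59 (SE 0.08, edgeR adjusted p = 0.0015), from a CBK range of 61.9 to 74.4 CPM to a CBK/CEK range of 98.6 to 109.9 CPM. It was the 1 gene called by edgeR among 27 of branched-chain amino acid and ketone metabolism, against 0.229% of all genes tested. The median of the 27 was 0.12, and DESeq2 and the fit of all 48 libraries also called Acadsb. Auh is also the measured gene next to Nfil3, described further below.

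The smaller metabolic changes were Mid1ip1, a regulator of acetyl-CoA carboxylase, at 0.78 (SE 0.11, edgeR adjusted p = 0.0045), and Dhdds, which takes part in dolichol synthesis, at 0.62 (SE 0.09, edgeR adjusted p = 0.00519). Mid1ip1 rose from 24.5 ± 3.94 to 42.3 ± 3.65 CPM (SD, n = 6), still far below the floxed range of 92 to 143.5 CPM. For Dhdds, CBK at 34.9 ± 2.97 CPM overlapped the floxed range of 34.6 to 43.9 CPM, and CBK/CEK at 54.0 ± 5.03 CPM lay above it. For Cp, ceruloplasmin, a copper-carrying oxidase of iron, CBK/CEK also lay above the floxed range. Its level was 81.0 ± 6.66 CPM in CBK and 121.9 ± 7.61 CPM in CBK/CEK (log2 fold change 0.58, SE 0.08, edgeR adjusted p = 0.0045), above the floxed range of 47.9 to 73.4 CPM, which CBK just overlapped.

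Genes of electrical activity and calcium storage changed in both directions. Kcnip2 encodes KChIP2, a subunit of the channels that carry the fast transient outward potassium current. It stood at 123.8, 138.2 and 143.9 CPM in the lowest, median and highest CBK/CEK library and at 75.9, 86.8 and 95.8 CPM in CBK. The groups did not overlap, the rise was 0.64 (SE 0.09, edgeR adjusted p = 0.00184), and both groups lay below the floxed range of 150.6 to 220.3 CPM. Kcne1, the accessory subunit of the slow delayed rectifier channel, stood at 4.89, 7.70 and 9.77 CPM in CBK/CEK and at 12.4, 13.3 and 23.9 CPM in CBK. It fell by 1.03 on the log2 scale (SE 0.19, edgeR adjusted p = 0.0361), and the CBK libraries lay above the floxed range of 2.54 to 5.82 CPM. The call for Kcne1 was lost without CBK replicate 6 or CBK/CEK replicate 1, 2, 4, 5 or 6, with an edgeR adjusted p of up to 0.0979. These were the 2 genes called by edgeR of 22 measured potassium and pacemaker channel genes, against 0.229% of all genes tested. The median of the 22 was 0.14. DESeq2 and the fit of all 48 libraries also called Kcnv2, whose log2 fold change was 0.86.

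Casq1, the calsequestrin isoform best known from skeletal muscle, stood at 12.8, 16.5 and 19.2 CPM in the lowest, median and highest CBK/CEK library and at 28.2, 39.9 and 49.4 CPM in CBK. It fell by 1.28 on the log2 scale (SE 0.14, edgeR adjusted p = 0.000259), to within the floxed range of 7.87 to 20.2 CPM, above which CBK lay. The summed level of the skeletal muscle marker list ranged from 1096 to 1683 CPM in CBK/CEK and from 1403 to 1860 CPM in CBK. The list holds Ckm and Acta1, which heart muscle expresses as well. Its members below the filter on low counts held few reads in any library: at most 3 in CBK and 0 in CBK/CEK for Myh1, 2 and 0 for Myh4, 2 and 6 for Myh2, 0 and 5 for Myod1, and 11 and 9 for Pvalb. Of 5 markers in the list that could be tested, 0 were called by edgeR or DESeq2 and 1 had an unadjusted p under 0.05. Of 26 genes of sodium and calcium handling in the heart itself, 0 were called by edgeR or DESeq2, 3 had an unadjusted p under 0.05 and the median was 0.07. Beside both lists, edgeR called 0.229% of all genes tested, and 7.59% had an unadjusted p under 0.05.

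**Figure D3:**
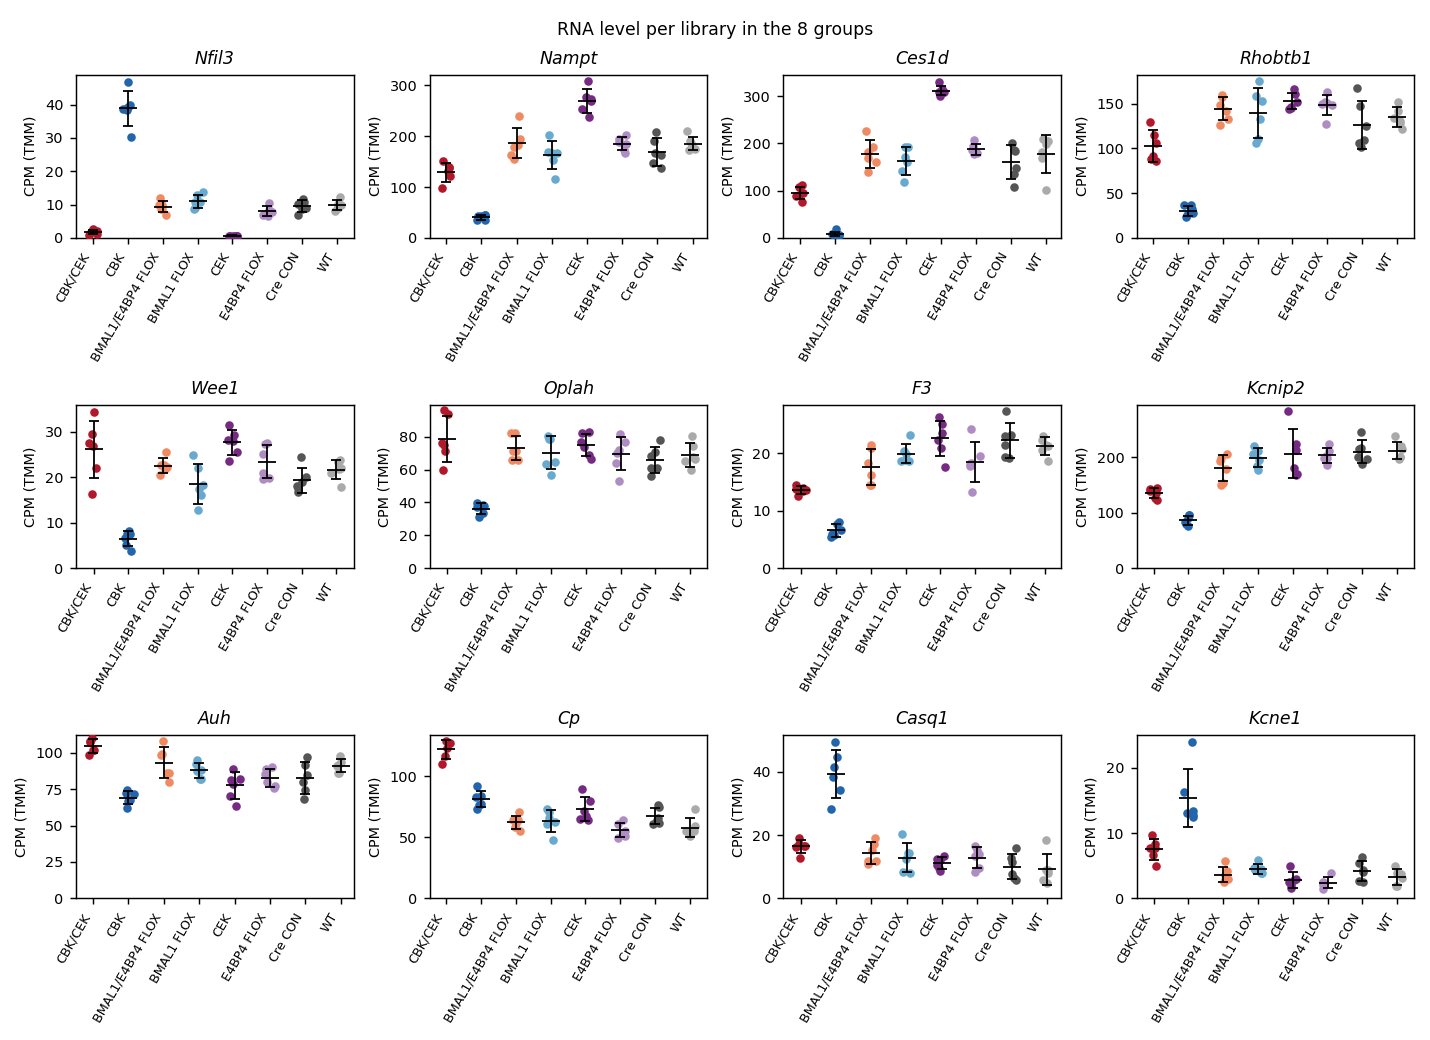
RNA level of 12 called genes in each of the 48 libraries. The y axes start at 0 and give TMM-normalised CPM; points are libraries, bars the mean and SD of 6. CBK stands apart from all other groups for Nampt, Rhobtb1, Wee1, Oplah and Casq1, while CBK/CEK stands between CBK and the floxed groups for Ces1d and Kcnip2 and above all other groups for Cp.

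Rhobtb1 encodes an adaptor of a cullin 3 ubiquitin ligase. It stood at 85.5, 98.9 and 130 CPM in the lowest, median and highest CBK/CEK library and at 23.8, 30.2 and 37.0 CPM in CBK, a rise of 1.74 (SE 0.14, edgeR adjusted p = 1.06e-05). CBK lay below the floxed range of 105.6 to 175.1 CPM, and CBK/CEK reached into its lower part. F3, tissue factor, which starts blood coagulation, rose by 1.04 (SE 0.12, edgeR adjusted p = 0.000479), from 6.23 CPM (range 5.45 to 8.04) to 13.7 CPM (range 12.5 to 14.4). Both groups of F3 lay below the floxed libraries, the lowest of which held 14.4 CPM after rounding.

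The other called rises were smaller or lower in level. Pde7a, a cAMP phosphodiesterase gene, rose by 0.75, Atp8a1, a phospholipid flippase gene, by 0.88, and Smtnl2, of the smoothelin family, by 0.95, with edgeR adjusted p-values of 0.00295, 0.00549 and 0.0045. Armh4 rose by 0.71 (edgeR adjusted p = 0.00519). For Pde7a, Atp8a1 and Smtnl2, CBK lay below all floxed libraries and CBK/CEK overlapped them, and for Armh4 both groups overlapped them. For Armh4 only the lowest CBK/CEK library, at 19.5 CPM, lay within the floxed range of 15.3 to 21.3 CPM. The other CBK/CEK libraries lay above it. These 4 rises were called in every fit that left out 1 library.

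A further group of rises depended on single libraries. Actr3b, an actin-related protein gene, rose by 0.56 (edgeR adjusted p = 0.0123) but had an edgeR adjusted p of 0.0554 without CBK/CEK replicate 5. Usp54 of the ubiquitin-specific peptidase family rose by 0.85 (edgeR adjusted p = 0.016), and its call was lost without CBK replicate 2 or 6 or CBK/CEK replicate 4, 5 or 6, with an edgeR adjusted p of up to 0.0637. The remaining ones were the adaptor gene Grb2 at 0.40, the transmembrane protein gene Itm2b at 0.43, the catenin relative Ctnnal1 at 0.58, the tyrosine phosphatase gene Ptpn3 at 0.74, Shisa6, known as an auxiliary gene of glutamate receptors, at 2.08, and the pseudogene Gm10925 at 1.00. Their edgeR adjusted p-values ranged from 0.0376 for Grb2 to 0.0464 for Ptpn3, and each call was lost without any of 9 to 12 of the 12 libraries, at an edgeR adjusted p of up to 0.16 for Ptpn3. Gm10925 is an unprocessed pseudogene and may share reads with its parent gene, and Shisa6 stood at only 2.28 ± 0.906 CPM in CBK/CEK.

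Besides Nfil3, Casq1 and Kcne1, 4 genes were lower in CBK/CEK. Emilin2, a glycoprotein gene of the extracellular matrix, stood at 13.8, 16.6 and 18.1 CPM in the lowest, median and highest CBK/CEK library and at 23.8, 32.9 and 44.7 CPM in CBK, a fall of -1.0 (SE 0.13, edgeR adjusted p = 0.00155). Floxed libraries held 32.6 to 71.5 CPM of Emilin2, and CBK/CEK lay below all of them while CBK overlapped them. The floxed littermates differed by -0.38 in the same direction (SE 0.15, unadjusted p = 0.0237, edgeR adjusted p = 1), and the difference between the Cre pair and the floxed pair was not called for Emilin2 (edgeR adjusted p = 0.971). Of 42 measured genes of the extracellular matrix and fibrosis list, which does not hold Emilin2, 0 were called by edgeR or DESeq2, 7 had an unadjusted p under 0.05 and the median was -0.09. Among all genes tested edgeR called 0.229%, and 7.59% had an unadjusted p under 0.05.

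Sprr1a, a small proline-rich protein gene induced in stressed heart muscle, stood at 2.87, 4.88 and 8.95 CPM in the lowest, median and highest CBK/CEK library and at 7.33, 24.2 and 35.2 CPM in CBK. Its ranges overlapped slightly, and it fell by 2.09 on the log2 scale (SE 0.38, edgeR adjusted p = 0.0362). No floxed library exceeded 0.89 CPM, so Sprr1a stayed above all of them in both groups. The Sprr1a call was lost without any of 9 single libraries, with an edgeR adjusted p of up to 0.119. Of 23 measured hypertrophy and fetal stress genes it alone was called, 6 had an unadjusted p under 0.05 and the median was -0.16. The shares over all genes tested were 0.229% called by edgeR and 7.59% at that unadjusted threshold. Dok5, a docking protein gene of receptor tyrosine kinases, fell by 1.42 on the log2 scale at a level of 2.07 ± 0.299 CPM in CBK (edgeR adjusted p = 0.0376), a call lost without any of 10 libraries (edgeR adjusted p of up to 0.126). Fuca2, a fucosidase gene, fell by 0.72 on the log2 scale (edgeR adjusted p = 0.0254), a call lost without CBK replicate 1 or CBK/CEK replicate 1, 3, 4, 5 or 6 (edgeR adjusted p of up to 0.0959).

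The neighbourhood of Nfil3 on chromosome 13 was examined because 2 of the 34 called genes flank it in the order of measured genes, an observation made after their values were seen. Auh lies on one side and the lincRNA gene Gm33424 on the other. Gm33424 stood at 5.51, 8.13 and 13.9 CPM in the lowest, median and highest CBK/CEK library and at 1.06, 1.41 and 2.85 CPM in CBK, a rise of 2.48 (SE 0.29, edgeR adjusted p = 0.000537). The floxed range was 2.21 to 5.55 CPM. Only the highest CBK library lay within it, and the others lay below. Only the lowest CBK/CEK library lay within it, and the others lay above. Gm33424 was also higher where E4bp4 alone was deleted, at 6.94 ± 1.99 CPM in CEK against 2.04 ± 1.06 CPM in E4BP4 FLOX (log2 fold change 1.74, SE 0.30, edgeR adjusted p = 0.0123). Auh was not, at -0.10 (SE 0.09, edgeR adjusted p = 0.758). In the floxed pair without Cre, Gm33424 differed by -0.08 and Auh by 0.09, and neither was called.

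Farther out the called changes ended. Gm48336, the next lincRNA, differed by 0.85 (SE 0.39, edgeR adjusted p = 0.656) at a level of 1.10 ± 0.500 CPM in CBK/CEK. The kinase gene Syk differed by -0.22, Gadd45g by -0.39, Sema4d by 0.07, the receptor gene Ror2 by -0.07 and the sphingolipid synthesis gene Sptlc1 by 0.01, and none was called. Whether reads or transcripts of the deleted Nfil3 allele reach into Gm33424 was not tested.

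**Figure D4:**
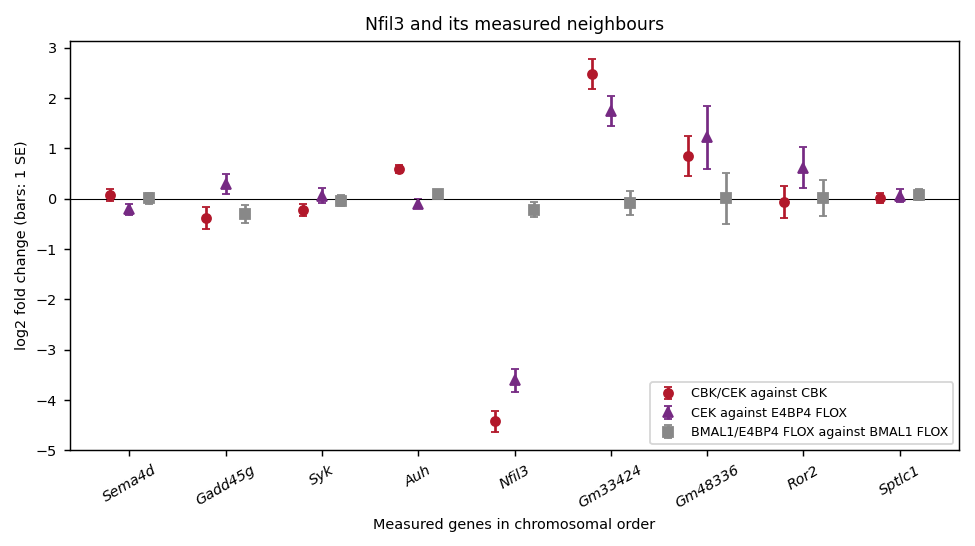
Nfil3 and the measured genes around it, in chromosomal order with equal spacing. The y axis is the log2 fold change with bars of 1 SE for CBK/CEK against CBK, CEK against E4BP4 FLOX and the floxed pair without Cre. Nfil3 is low in both comparisons with an E4bp4 deletion, at -4.42 and -3.61, Gm33424 is high in both, at 2.48 and 1.74, and Auh is at 0.59 in the first and -0.10 in the second.

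Pathways beyond those named above showed no member called by edgeR. Of the 21 gene lists examined, 14 had no member called by edgeR, with 44 of their 430 measured memberships at an unadjusted p under 0.05, 4 called by DESeq2 and 6 in the fit of all 48 libraries. For comparison, edgeR called 0.229% of all genes tested, and 7.59% of them fell under that unadjusted threshold. The 4 DESeq2 calls were Irs2 and Grb10 of insulin and growth signalling and Phgdh and Mthfd2 of the stress response. Irs2 had the highest log2 fold change of its list, 1.26, a rise of more than 2-fold. The fit of all 48 libraries called Cacna1c, Eno1, Ppp1r3a, Phlda3, Foxo3 and Grb10. Medians of the 14 lists ranged from -0.21 for cell cycle to 0.12 for insulin and growth signalling, beside -0.01 over all genes. Oxidative phosphorylation had a median of -0.19 over 39 genes with 0 at an unadjusted p under 0.05, sarcomere and Z-disc genes -0.18 over 25 and glucose and glycogen metabolism -0.09 over 36, with 9 at an unadjusted p under 0.05. The medians were 0.06 for fatty acid uptake and oxidation, -0.07 for the integrated stress and unfolded protein response, -0.03 for the p53 response, -0.05 for antioxidant genes, 0.04 for autophagy, -0.05 for cytokines and interferon genes and 0.11 for immediate early genes.

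Markers of the cell types that the ventricle samples could hold were counted next. Of 100 measured memberships in 13 marker lists, 0 were called by edgeR or DESeq2 and 6 had an unadjusted p under 0.05. Over all genes tested, edgeR called 0.229% and 7.59% had an unadjusted p under 0.05. The 0 calls among 100 are therefore near the share over all genes. Cardiomyocyte markers summed to 70723 to 84160 CPM in CBK/CEK and 64965 to 120848 CPM in CBK. Fibroblast markers summed to 2542 to 3317 CPM and 2815 to 3388 CPM, and endothelial markers to 1126 to 1438 CPM and 1118 to 1646 CPM. Mural cell markers spanned 895 to 1120 CPM in CBK/CEK and 656.7 to 926.5 CPM in CBK, with 1 of 9 at an unadjusted p under 0.05. The list medians farthest from 0 were -0.41 for 5 erythroid markers and 0.25 for 8 atrial markers, with 0 of either at an unadjusted p under 0.05. Erythroid sums spanned 238 to 785.2 CPM in CBK/CEK and 307.8 to 1238 CPM in CBK, and atrial sums 1052 to 2140 CPM and 445.9 to 2760 CPM. In such bulk samples fewer cells of a type and less RNA per cell cannot be told apart.

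The floxed littermates show what the alleles and the lines carry without Cre. BMAL1/E4BP4 FLOX against BMAL1 FLOX had 0 of 14844 genes called (0%), the smallest edgeR adjusted p being 0.228, with 375 (2.53%) at an unadjusted p under 0.05. DESeq2 called 3, and without BMAL1/E4BP4 FLOX replicate 6, the library that stands apart in composition, edgeR again called 0. The 27 higher genes had a median of 0.06 in this pair and the lower genes other than Nfil3 -0.27, and the called genes ranged from -0.82 (Shisa6) to 0.52 (Ptgds). Sprr1a was too low to be tested there. Nfil3 itself differed by -0.22 (SE 0.15, edgeR adjusted p = 1).

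The difference between both pairs was then tested directly in 1 fit of the 24 libraries. Of 15858 genes, 20 were called (0.126%), 18 higher and 2 lower, and all 20 are among the 34. The lower genes were Nfil3 (difference of log2 fold changes -4.19, SE 0.25, edgeR adjusted p = 1.54e-11) and Casq1 (-1.43, SE 0.27, edgeR adjusted p = 0.0152). The higher genes ranged from Auh at 0.51 to Ces1d at 3.28, and included Nampt, Wee1, Rhobtb1, Oplah, F3, Kcnip2, Cp, Coq10b and Gm33424. For the 14 others, among them Ptgds, Emilin2, Kcne1, Pde7a and Atp8a1, a difference beyond that of the floxed pair was not shown. Without CBK replicate 5, the library with the lowest mitochondrial share, 13 genes were called, and 18 without BMAL1/E4BP4 FLOX replicate 6.

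**Figure D5:**
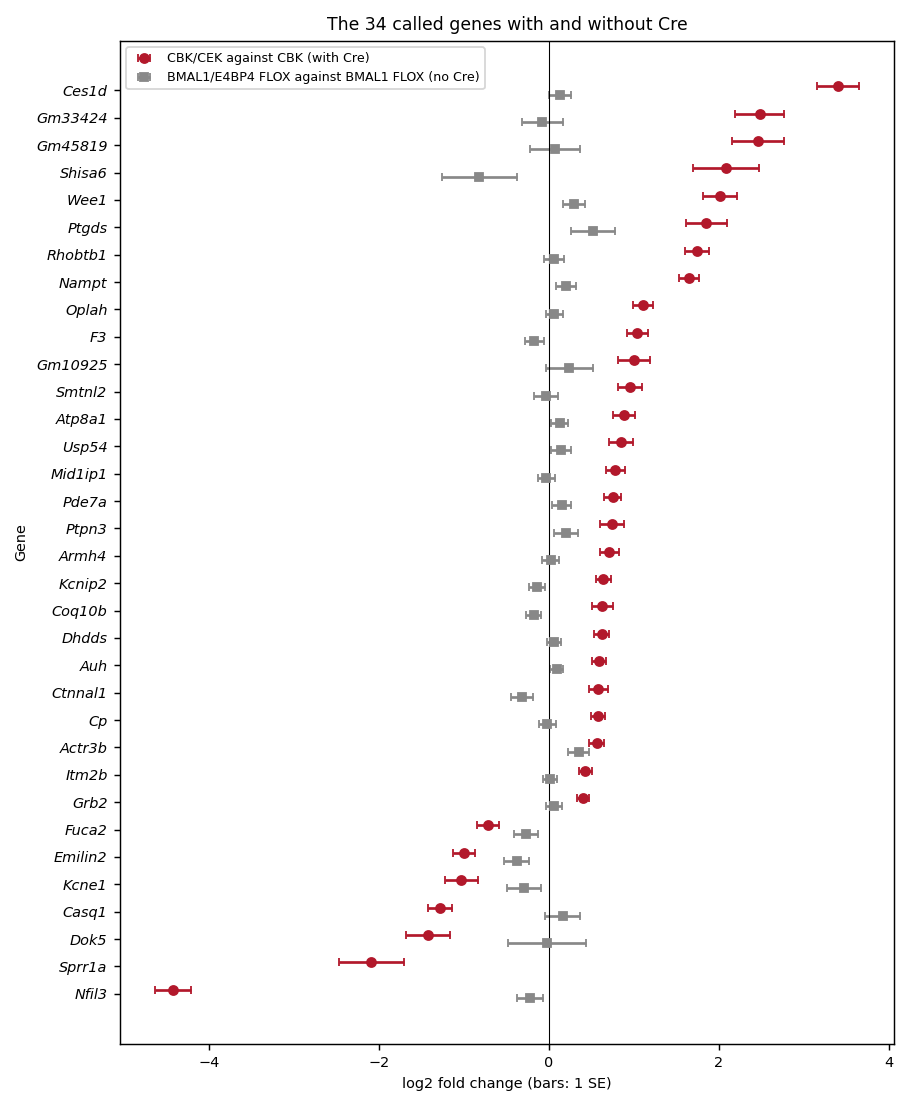
The 34 called genes with and without Cre. The x axis is the log2 fold change with bars of 1 SE, red for CBK/CEK against CBK and grey for BMAL1/E4BP4 FLOX against BMAL1 FLOX, where Sprr1a was not tested. The grey points lie between -0.82 and 0.52, and no gene was called there.

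Levels of the called genes were set beside those of the 12 floxed libraries. For 19 of the 27 higher genes all CBK libraries lay below all floxed libraries, and for 8 they overlapped. The CBK/CEK libraries overlapped the floxed range for 20 of the 27, lay below it for 5 (Ces1d, F3, Kcnip2, Mid1ip1 and Coq10b) and above it for 2 (Cp and Dhdds). Of the 7 lower genes, 5 stood above the floxed range in CBK (Nfil3, Casq1, Kcne1, Sprr1a and Dok5), and in CBK/CEK 4 overlapped it, Nfil3 and Emilin2 lay below it and Sprr1a above it. Ranges that barely met were counted as overlapping. For Nampt and Ptpn3 the CBK/CEK overlap rested on BMAL1 FLOX replicate 3 alone, at 116 and 37.7 CPM. The other floxed libraries held at least 153.4 CPM of Nampt and 54 CPM of Ptpn3, above all CBK/CEK libraries. For Armh4, Gm33424 and Kcne1 in CBK/CEK only the lowest library lay within the floxed range, and the others lay above it. The same was true of Cp in CBK. The CBK libraries enter both comparisons, so these counts describe where the levels lie and are not a separate test. The same counts over all genes tested were not made, so no share is set beside them.

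The same genes were followed where Bmal1 is present, in CEK against E4BP4 FLOX, a comparison added after the data were seen that shares no library with CBK/CEK against CBK and also holds the effect of Cre. Of 14271 genes tested there 25 were called (0.175%). All 27 higher genes were measured, and their median was 0.11. After rounding, 17 of them had a positive log2 fold change, with Armh4 and Coq10b at 0.0 and not counted. Among all genes tested there, 52.1% were positive before rounding. Of the 27, 3 were called, all higher: Ces1d at 0.73 (SE 0.07, edgeR adjusted p = 1.32e-05), Nampt at 0.54 (SE 0.08, edgeR adjusted p = 0.00222) and Gm33424 at 1.74. Wee1 stood at 27.7 ± 2.79 CPM in CEK and 23.4 ± 3.68 CPM in E4BP4 FLOX (log2 fold change 0.23, edgeR adjusted p = 0.541), and Rhobtb1 differed by 0.04 (edgeR adjusted p = 0.916). Of the 6 lower genes other than Nfil3, 4 were measured there, with Casq1 at -0.22, Emilin2 at -0.21, Fuca2 at 0.04 and Kcne1 at 0.20, and none of these was called by edgeR. Whether the response to E4bp4 loss differs between hearts with and without Bmal1 was not tested.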

How the data were processed

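Per the labels' protocols, RNA was extracted with the RNeasy Mini Plus kit, and 1.3 ug of total RNA per mouse entered library preparation with the SMARTER mRNA-Seq kit. The deposited values are raw counts per gene. The submitters' processing notes name bcl2fastq 2.18.0.12, STAR 2.7.9a, HTSeq 0.11.1 and GRCm39; the annotation release and the strandedness are not stated there. Of 53700 Ensembl identifiers, 52093 (97.0%) matched a GENCODE M21 symbol on GRCm38, used for names and order only. The 5 HTSeq summary lines were left out. No libraries were identical.

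Genes were kept by filterByExpr, normalised with TMM and tested with edgeR 4.0.16 (quasi-likelihood, robust, limma 3.58.1, R 4.3.3), with Benjamini-Hochberg adjustment over all genes tested. CBK/CEK and CBK were fitted alone, because the spread differs between lines; the median biological coefficient of variation was 21.9%. The floxed pair was fitted alone, and the difference of differences in 24 libraries. The SE is the absolute log2 fold change divided by the square root of edgeR's F. Intervals use this SE and 10 residual degrees of freedom. They are not part of edgeR's test, so near the threshold an interval and edgeR's p can disagree.

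In simulated data for CBK/CEK against CBK (14541 genes, 200 changed), 65% of genes changed by 2-fold and 24% of those changed by 1.5-fold were recovered, and 4.3% of calls were false. For the difference of differences (15647 genes) these were 64%, 12% and 3.8%. In both simulations the changed genes were drawn from those with a mean above 1 CPM, so recovery below that level was not measured. Changes of 2-fold and, more often, of 1.5-fold can therefore be missed at this number of animals.

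The comparison, the 21 gene lists and 13 marker lists and the rule for named genes were chosen with earlier results of these data known. The rule took Nfil3, Arntl, the clock list, the 12 largest called rises and 12 largest called falls with at least 1 CPM in a group and no overlap between groups, at most 4 called genes of each list, and at most 6 per direction from each other contrast. A further 12 called genes, the neighbours of Nfil3 and Wee1 and the comparison of CEK with E4BP4 FLOX were added after values were seen. Alternatives were RLE, DESeq2 1.42.0, other filters, a fit of 48 libraries, a replicate block, a term for animal numbers below 100, the share of ENSMUSG00000119584 as a covariate, mitochondrial genes left out, and each library left out in turn.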

Additional observations from a re-analysis of the deposited data

Results flagged for a closer look

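The change between CBK/CEK and CBK differed from that between their floxed littermates for 20 genes, by edgeR's test of the difference itself. The difference of log2 fold changes was -4.19 for Nfil3 and -1.43 for Casq1. It was 3.28 for Ces1d, 1.46 for Nampt, 1.70 for Rhobtb1, 1.72 for Wee1 and 2.40 for Gm45819 beside Wee1. For the genes next to Nfil3 it was 2.57 for Gm33424 and 0.51 for Auh. It was 1.22 for F3, 1.05 for Oplah, 0.79 for Kcnip2, 0.82 for Coq10b and 0.82 for Mid1ip1. For the remaining genes it was 0.91 for Ctnnal1, 0.69 for Armh4, 0.57 for Dhdds, 0.99 for Smtnl2, 0.61 for Cp and 2.90 for Shisa6.

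Among 128 groups of 6 libraries examined, 6 held a library far from the other 5, where chance alone gives about 6.4. In CBK replicate 5, which also had the lowest mitochondrial share, Ces1d was highest of its group at 18.1 CPM and the casein kinase gene Csnk1e at 65.1 CPM. In CBK replicate 6, Fuca2 was highest at 289.1 CPM and Kcne1 at 23.9 CPM. Csnk1e was lowest in CBK/CEK replicate 5 at 30.4 CPM, and Sptlc1 highest in CBK replicate 4 at 17.7 CPM. The part of these libraries' composition in these values was not tested.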

How the results depend on the processing

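Against the 34 genes called, DESeq2 called 96 and a fit of all 48 libraries 128, and with the replicate number as a block 12 were called. Same-numbered libraries of CBK/CEK and CBK had correlations of deviations from -0.308 to 0.284, and 1 of 6 was most like its own number; in the floxed pair they ranged from 0.009 to 0.326, and 3 of 6 were, so not every pair passed 0.1 and the numbers were not taken to pair the samples. Leaving out single libraries gave 21 to 32 calls, with 22 without CBK/CEK replicate 4; the other settings gave 29 to 37. Of the 34 genes, 12 were called under all 22 alternatives (Nfil3, Nampt, Ces1d, Rhobtb1, Wee1, Oplah, Casq1, F3, Gm33424, Gm45819, Ptgds and Emilin2), 9 were lost under the block alone, and 13 without at least 1 single library as well. No called gene changed direction under any of them. Calls in the floxed pair were 3 with DESeq2 and 2 without a filter on low counts, and 0 under the other settings. The 20 calls beyond the floxed pair became 31 with DESeq2, 12 without CBK replicates 3 and 5 together, 13 without CBK replicate 5, 19 without CBK replicate 3 and 18 without BMAL1/E4BP4 FLOX replicate 6; the other settings gave 15 to 27, among them 17 with the block. Genes near 1 CPM, such as Shisa6, Dok5 and Gm48336, rest on few reads. The cause of these changes was not tested.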
